A study of Mus musculus with 4 samples.

Results

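The red cell membrane skeleton and surface were described here through 8 genes, Sptb, Ank1, Slc4a1, Epb41, Epb42, Gypc, Rhag and Kel. They make up 8 of the 22911 genes named on the array, and they were read by all probes, other than controls, whose transcript belongs to one of them in RefSeq, 16 of 56605 probes. RNA came from livers of fetuses at 14.5 days post coitum (dpc), carried by C57BL/6J dams that ate a control diet (CD, 4.3% of energy as fat) or a high-fat diet (HFD, 60% of energy as fat) during gestation. The text of the study speaks of fetal livers, but a figure legend speaks of hepatocytes from fetuses. There were 2 arrays per group, each a single-colour Agilent array of Cy3-labeled cRNA, and the labels give the sex as female without saying whether that is the dam or the fetus. The arrays of a group are called biological replicates, but how many fetuses or dams stand behind each is not given in the sources used here. The p-values below rest only on the spread between these arrays. In limma, the spread of each probe is drawn towards that of all tested probes, which also sets the standard errors given below. A level is the log2 intensity of a probe minus the 75th percentile of all probes on that array, which lay at intensities of 1073 and 704 for CD and of 969 and 909 for HFD. Levels of different probes are not compared with each other, apart from summed signals and rankings by brightness, since each probe binds with its own strength.

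At mid-gestation the mouse liver is the main site of red cell formation, and erythroblasts lie among the hepatoblasts. A maturing erythroblast lays down a mesh of spectrin under its membrane, and the mesh is tied to the lipid layer at a few kinds of junction. In one, ankyrin links beta-spectrin to the anion exchanger band 3, and in another, protein 4.1 joins spectrin and actin to glycophorin C. Loss of beta-spectrin, ankyrin, band 3 or protein 4.2 gives spherocytes, and loss of protein 4.1 gives elliptocytes. In RNA from a mixture of cells, fewer cells of a type and less RNA per cell cannot be told apart.

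Markers of the labeled tissue were present. Signal was well above background on every array for all 20 genes of a hepatoblast and hepatocyte list. The same held for all 35 tested genes of an erythroid list from which membrane genes were left out. Of all 18350 tested genes, 16595 were well above background on every array, so these counts do not set the tissue apart. Markers of other tissues were present as well. Of 13 tested trophoblast and decidua genes, 10 were well above background on every array, and 9 were lower in the HFD group at an unadjusted limma p under 0.05 and at least 2-fold (0.583% of all tested genes were). The log2 of their summed signal, on the scale of the levels, was 6.06 and 6.29 with CD and 5.59 and 5.64 with HFD. Such a sum follows the brightest probes and does not show the size of the change in the 9 genes. With HFD this sum was nearly that of Gcm1 alone, which was not among the 9 and differed by 0.55 with overlapping groups. Among 14 genes of brain, kidney, gonad, gut and lung, 3 were higher by the same rule (Cyp11a1, Cdh16 and Nr5a1, beside 0.283% of all genes). The lung gene Sftpc was lower. The summed signal of the 14 was 4.45 and 3.72 against 3.81 and 4.27. Their part in the results on the red cell membrane was not tested. The CD arrays also stood apart from each other, with an SD of 0.60 on the log2 scale for their differences over 41614 tested probes, against 0.37 for the HFD arrays.

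The promoters of 4 members are shown because they stand for both patterns found below, Sptb and Rhag with every HFD array above every CD array, and Epb42 and Kel with groups that overlapped. The table of RefSeq promoters (GRCm38.p6) held 7 promoters for 5 of the 8 genes, Sptb, Epb41 (3 starts), Epb42, Rhag and Kel. Each line gives the 250 bases before the annotated start, 5′ to 3′ on the strand of the gene. Capitals mark matches, on either strand, to the site of GATA factors (the letters GATA with an A or T before them and an A or G after them) or to CCNCNCCC, the kind of site that KLF1 and its relatives bind, and neighbouring matches can overlap.
Sptb, chr12:76710548-76710797, minus strand: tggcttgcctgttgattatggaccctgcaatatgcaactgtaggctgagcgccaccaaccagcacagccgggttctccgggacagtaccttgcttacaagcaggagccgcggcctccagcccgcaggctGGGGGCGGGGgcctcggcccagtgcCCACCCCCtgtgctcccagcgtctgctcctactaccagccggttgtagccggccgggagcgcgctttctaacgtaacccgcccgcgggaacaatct
Rhag, chr17:40810899-40811148, plus strand: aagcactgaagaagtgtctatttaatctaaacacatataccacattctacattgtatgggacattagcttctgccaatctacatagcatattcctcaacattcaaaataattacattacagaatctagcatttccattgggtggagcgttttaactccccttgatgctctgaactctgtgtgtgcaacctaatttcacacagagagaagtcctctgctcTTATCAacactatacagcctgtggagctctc
Epb42, chr2:121036878-121037127, minus strand: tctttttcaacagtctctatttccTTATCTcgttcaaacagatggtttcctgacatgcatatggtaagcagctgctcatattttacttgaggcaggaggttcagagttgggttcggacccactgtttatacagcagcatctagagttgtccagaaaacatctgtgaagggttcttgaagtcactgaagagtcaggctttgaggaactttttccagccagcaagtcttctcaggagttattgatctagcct
Kel, chr6:41704326-41704575, minus strand: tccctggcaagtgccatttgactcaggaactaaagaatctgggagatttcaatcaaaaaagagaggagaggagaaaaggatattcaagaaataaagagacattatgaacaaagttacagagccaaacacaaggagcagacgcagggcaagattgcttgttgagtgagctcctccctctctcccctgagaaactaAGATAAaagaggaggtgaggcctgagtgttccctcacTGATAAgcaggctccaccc
The Kel promoter held 2 GATA matches, whose first printed base lay 56 and 19 bases before the start. Rhag held 1 at 31 bases before the start, and Epb42 held 1 at 226 bases. Sptb held no GATA match but 3 matches to CCNCNCCC, of which 2 overlapped. Over all 7 promoters of these genes, 4 had a GATA match and 3 a CCNCNCCC match, where 26.5% and 45.9% of the 32851 promoters in the table had one. A GATA match was held by Rhag, whose groups did not overlap, and by Kel and Epb42, whose groups did. No promoter was listed for Ank1, Slc4a1 and Gypc, and any part of these sites in the levels was not tested.

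The red cell membrane genes differed little between the diets. Sptb, Slc4a1, Epb41 and Rhag had both HFD arrays above both CD arrays on their brightest probes, by 1.13-fold for Sptb to 1.34-fold for Epb41 and Rhag, whereas for Ank1, Epb42, Gypc and Kel the HFD arrays fell between the CD arrays. No probe of these genes passed the test, which was limma on the 15 of 16 probes, covering all 8 genes, that were left after the filters on dim and variable probes. All 15 were well above background on every array. The remaining probe, for a predicted Epb41 transcript (XM_006538913), was not well above background on any array, and no fold is given for it. Unadjusted p-values ran from 0.0527 for Rhag to 0.992 for an Ank1 probe (limma, adjusted p = 1.00 for each). Of all 41614 tested probes, 3.3% had an unadjusted p under 0.05 (1.52% with the HFD group higher), 0.81% also changed at least 2-fold (0.284% higher and 0.526% lower), and 0 (0%) had an adjusted p under 0.05. The 95% confidence interval of the difference included 0 for all 15 probes and stayed under a 2-fold rise for 14 of them.

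The HFD mean was above the CD mean for 14 of the 15 probes, beside 54.9% of all tested probes. Both HFD arrays lay above both CD arrays for 7 of the 15, beside 19.4%, and below both for 0 of the 15, beside 11.1%. CD replicate 2 was above CD replicate 1 for 11 of the 15, beside 52.5%, and for 8 of the 15 the CD arrays were farther apart than the diets. Taken by the brightest probe of each gene, all 8 genes had the higher mean in the HFD group (57.5% of the 18350 tested genes did), and 4 of the 8 had both HFD arrays above both CD arrays (22.9%). These shares depended on brightness. Of the 1926 tested genes with a mean level of 4 and above, 40.9% had both HFD arrays above both CD arrays, and of the 5 red cell membrane genes in that range 2 did.

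**Figure D1:**
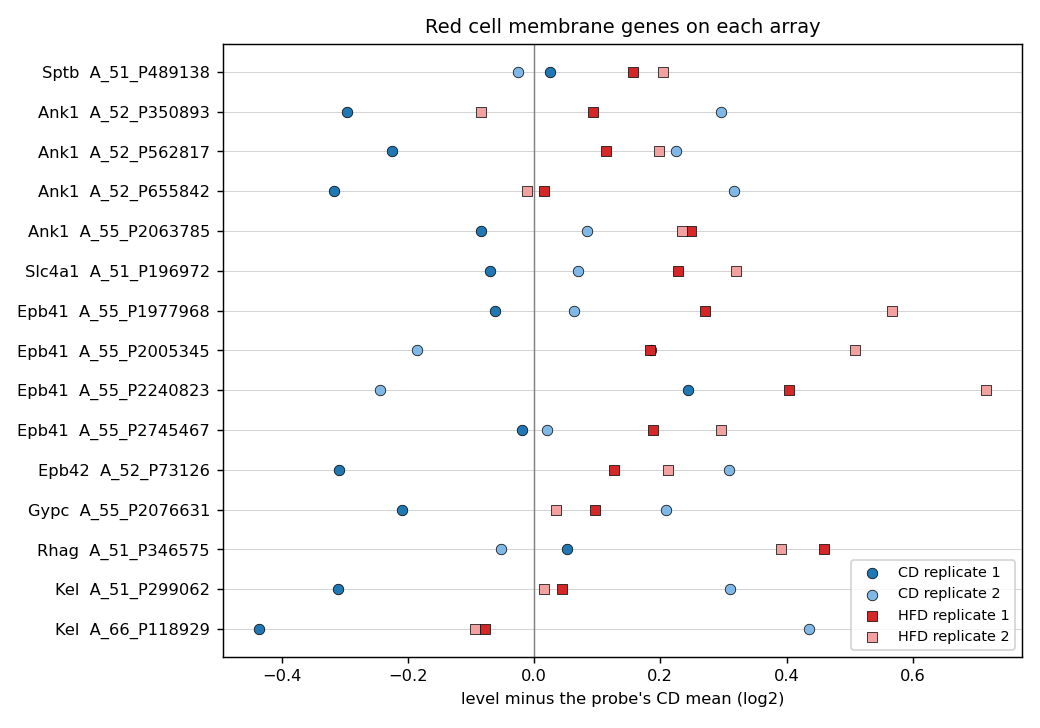
Level of each of the 15 tested probes on the 4 arrays, as the log2 difference from the mean of the CD arrays of that probe. Circles are CD arrays and squares HFD arrays, and for 7 probes both squares lie to the right of both circles (for Epb41 A_55_P2005345, CD replicate 1 is hidden behind HFD replicate 1).

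Sptb encodes the beta chain of red cell spectrin, the long flexible rod of the mesh. Its probe read -3.35 and -3.40 with CD against -3.22 and -3.17 with HFD. Both HFD arrays were higher than both CD arrays, and the arrays within a group lay within 0.051 of each other. The probe was dim, at intensities of 105 and 67 with CD and of 104 and 101 with HFD. The median probe of these arrays lay at 120 and 70 with CD and at 100 and 97 with HFD. Before scaling CD replicate 1 was the highest array, so the order of the groups rests on the scaling. The difference was 0.18 on the log2 scale (standard error 0.16, 95% interval -0.24 to 0.60).

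Ank1 encodes ankyrin-1, which ties beta-spectrin to band 3, and it was read by 4 probes. The brightest (A_52_P562817) gave levels of 4.33 and 4.78 with CD, and of 4.67 and 4.76 with HFD. Here both HFD arrays fell between the CD arrays, and the difference of 0.16 (standard error 0.22, 95% interval -0.43 to 0.74) was smaller than the gap of 0.45 between the CD arrays. The same order held for A_52_P655842, at 0.37 and 1.01 against 0.70 and 0.68, and for A_52_P350893, at -2.78 and -2.19 against -2.39 and -2.57. On the latter 2 the diets differed by 0.00, and on all 3 probes of transcript NM_031158 CD replicate 1 was the lowest array and CD replicate 2 the highest. The fourth probe (A_55_P2063785, transcript NM_001110783) gave 2.98 and 3.15 with CD against 3.32 and 3.30 with HFD. It was the only Ank1 probe whose groups did not overlap, with a difference of 0.24 (95% interval -0.20 to 0.69). Whether the transcripts differ or the probes do was not tested.

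Slc4a1 encodes band 3, the chloride and bicarbonate exchanger that also anchors the skeleton. Its spot shone at an intensity of 186193 and 134580 with CD and of 206756 and 206614 with HFD, below saturation on each array. As levels these were 7.44 and 7.58 against 7.74 and 7.83, so that both HFD arrays were the higher ones. The difference of 0.27 (standard error 0.17, 95% interval -0.17 to 0.72) corresponds to 1.21-fold.

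Epb41 encodes protein 4.1R, which strengthens the contact of spectrin with actin and whose messenger is spliced in many ways, one exon of the spectrin and actin binding domain being taken in as erythroblasts mature. The brightest of its 4 tested probes (A_55_P1977968) read 6.95 and 7.07 with CD against 7.28 and 7.57 with HFD. The difference was 0.42 (standard error 0.19, 95% interval -0.09 to 0.93, or 0.940-fold to 1.90-fold), and the groups did not overlap. For A_55_P2745467 the levels were 1.05 and 1.09 against 1.25 and 1.36, again without overlap (difference 0.24, standard error 0.16). These 2 probes placed the CD arrays within 0.13 of each other. The other 2 placed CD replicate 2 clearly under CD replicate 1. On A_55_P2240823 (transcript NM_001128606) the levels were -1.74 and -2.22 with CD and -1.58 and -1.26 with HFD. The difference of 0.56 was the largest of all 15 probes (standard error 0.25, 95% interval -0.11 to 1.23). On A_55_P2005345 they were -1.41 and -1.78 against -1.41 and -1.09, and HFD replicate 1 was level with CD replicate 1 (difference 0.35, standard error 0.23). All 4 probes were thus higher in the HFD group by 0.24 to 0.56, with intervals that included 0. Which exons the probes lie in is not given in the files.

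**Figure D2:**
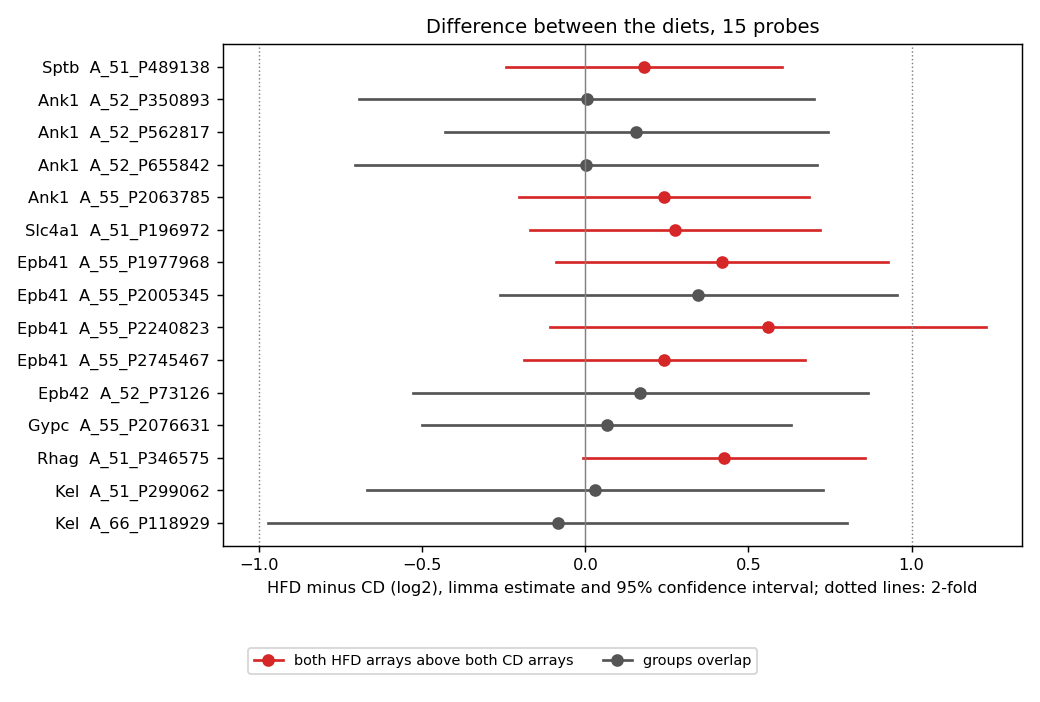
Difference between the diets (HFD minus CD, log2) for the 15 tested probes, with the 95% confidence interval from limma. Red marks the 7 probes whose groups did not overlap, and every interval crosses 0, from the narrow miss of Rhag (lower bound -0.0076) to the widest, that of Kel A_66_P118929 (-0.97 to 0.80).

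Epb42 encodes protein 4.2, a relative of the transglutaminases without enzyme activity that steadies the junction of band 3 and ankyrin. The probe read 2.22 and 2.84 with CD against 2.66 and 2.74 with HFD. The HFD arrays lay between the CD arrays, as for the brightest Ank1 probe. The difference of 0.17 (standard error 0.26, 95% interval -0.53 to 0.87) was well under the gap of 0.62 between the CD arrays.

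Gypc encodes glycophorin C, the sialic acid-bearing surface protein held by protein 4.1. It was at 5.76 and 6.18 with CD and at 6.07 and 6.00 with HFD. CD replicate 1 was the lowest array and CD replicate 2 the highest, and the diets differed by 0.07 (standard error 0.21, 95% interval -0.50 to 0.63).

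Rhag encodes the Rh-associated glycoprotein, a gas and ammonium channel that the Rh proteins need to reach the surface. Levels were 2.36 and 2.26 with CD and 2.77 and 2.70 with HFD, or 2.31 ± 0.07 and 2.73 ± 0.05 (SD, n = 2 each). Both HFD arrays lay above both CD arrays, and the distance between the groups was larger than the spread within either. The difference was 0.43 (standard error 0.16, 95% interval -0.01 to 0.86, limma adjusted p = 1.00), or 1.34-fold, and its unadjusted p of 0.0527 was the smallest of all 15 probes. With 2 arrays a group, permuting the labels exactly gives no p under 0.333. Rhd, the one Rh protein of the mouse red cell, read 6.63 and 6.93 against 6.99 and 7.05, without overlap of the groups (difference 0.24, 95% interval -0.26 to 0.74).

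Kel encodes the Kell glycoprotein, a zinc endopeptidase at the cell surface that carries a blood group in humans. On its brighter probe (A_51_P299062) the levels were 4.87 and 5.49 with CD and 5.22 and 5.19 with HFD. On A_66_P118929 they were 3.84 and 4.71 against 4.20 and 4.18. On both probes the HFD arrays were nearly equal and lay between CD arrays that were 0.62 and 0.87 apart. The differences were 0.03 (95% interval -0.67 to 0.73) and -0.09 (95% interval -0.97 to 0.80), so that the probes disagreed in sign but not beyond their error. Xk, the membrane protein to which Kell is bound, differed by 0.17 (standard error 0.23), and its groups overlapped.

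By their brightest probes the genes thus fell into 2 kinds. In Sptb, Slc4a1, Epb41 and Rhag the CD arrays lay within 0.14 of each other and both HFD arrays were above them. In Ank1, Epb42, Gypc and Kel, CD replicate 2 was above CD replicate 1 by 0.42 to 0.62 and the HFD arrays fell between. Each kind held parts of the skeleton and parts of the surface. Leaving out CD replicate 1 turned the differences of Ank1 (-0.07), Epb42 (-0.14), Gypc (-0.14) and Kel (-0.28) below 0, while without CD replicate 2 every one of the 8 genes was higher in the HFD group, with non-overlapping groups and a median difference of 0.36 in place of 0.18. Without CD replicate 1 that median was 0.07. The differences of Sptb, Slc4a1, Epb41 and Rhag stayed above 0 without any 1 array. These signs follow from the order of the arrays by which the genes were sorted. They are thus no further evidence that the 2 kinds differ. With 1 array left out, Rhag lay between 0.37 and 0.48, Slc4a1 between 0.20 and 0.34 and Sptb between 0.16 and 0.21. Epb41 ran from 0.27 without HFD replicate 2 to 0.57 without HFD replicate 1. The difference of Sptb was 0.05 with another background correction (normexp) and 0.03 with the arrays centred on the erythroid list.

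The distance between the CD arrays was shared with other genes of the liver. With each gene set to 0 at its own mean, the 8 genes had a median of -0.26 and 0.04 with CD and of 0.06 and 0.12 with HFD. For the erythroid list these medians were -0.28 and 0.15 against 0.07 and 0.10, for 20 hepatoblast genes -0.29 and 0.25 against 0.04 and -0.02, and for 12 megakaryocyte genes -0.49 and 0.25 against 0.07 and 0.13. CD replicate 2 was above CD replicate 1 in 33 of 35 erythroid, 20 of 20 hepatoblast and 12 of 12 megakaryocyte genes, beside 55.3% of all tested genes. This gap was larger in bright genes. Over all tested genes its median was -0.09 at mean levels of -4 to 0, 0.10 at 0 to 4 and 0.22 at 4 and above. It was 0.28 for the 8 genes, 0.47 for the erythroid, 0.52 for the hepatoblast and 0.74 for the megakaryocyte list. Mesenchymal genes, such as the collagens Col1a1 and Col1a2, ran the other way, at 0.42 and -0.34 against -0.09 and 0.05, with 1 of 10 higher on CD replicate 2. The part of these other cell types in the levels of the red cell membrane genes was not tested.

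**Figure D3:**
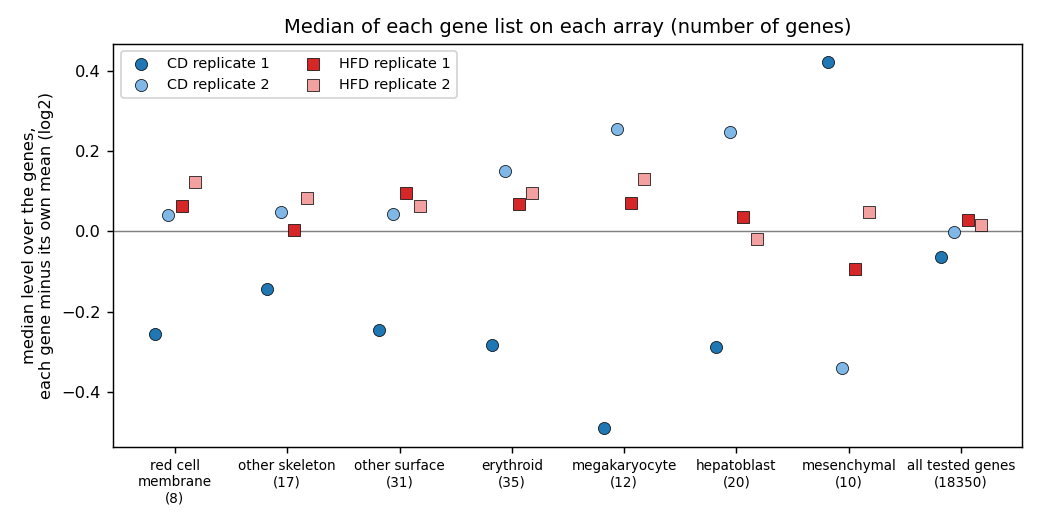
Median level of each gene list on each array, with every gene taken relative to its own mean (log2). CD replicate 1 is the lowest array for the red cell membrane genes (-0.26) and for the erythroid, megakaryocyte and hepatoblast lists, and the highest for mesenchymal genes (0.42).

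The hemoglobins of the erythroid list did not share 1 pattern. The adult chains Hba-a1 (9.07 and 9.65 against 9.22 and 9.33) and Hbb-bt (8.90 and 9.55 against 9.06 and 9.21) had the HFD arrays between the CD arrays, as Kel and Ank1 did. The embryonic chain Hbb-y (8.75 and 7.99 against 8.77 and 9.10) was lowest on CD replicate 2, as were Hba-x (3.59 there and at least 5.27 on the other arrays) and the Epb41 probes A_55_P2240823 and A_55_P2005345. The embryonic chain Hbb-bh1 was instead lowest on CD replicate 1, with CD replicate 2 above it by 0.33 and both HFD arrays higher still. The transcription factors Gata1 (5.50 and 5.92 against 5.87 and 5.85) and Klf1 (3.41 and 4.30 against 3.91 and 3.74), which drive the erythroid program, had overlapping groups.

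The difference between the diets was then read beside other genes of the red cell membrane. Of 17 further genes of the skeleton and its anchors, 14 were higher on average in the HFD group, 5 had both HFD arrays above both CD arrays (57.5% and 22.9% of all tested genes did), and the median difference was 0.07. The brightest were Actb (0.00), Gapdh (0.06) and Tpm3 (0.19). The adducins Add1 and Add2, which cap and bundle the skeleton, had differences of 0.10 and 0.17, and Dmtn, the actin-bundling dematin, -0.17. Of 31 further surface proteins, 26 were higher on average (57.5% of all tested genes), 14 had both HFD arrays above both CD arrays (22.9%) and 2 had both below (10.2%), and the median was 0.16. The brightest were Rhd (0.24), the glucose carrier Slc2a1 (0.42) and the transporter Abcg2 (0.29). The share of all tested genes with both HFD arrays above was 27.5% at mean levels of 0 to 4 and 40.9% at 4 and above. No gene of either list had an unadjusted p under 0.05, which 2.87% of all tested genes had.

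The median over the 8 red cell membrane genes was 0.18, beside 0.17 for the erythroid list, 0.20 for megakaryocyte genes, -0.01 for hepatoblast genes and 0.04 for all 18350 tested genes. Bright genes had a higher median, at 0.05 for all tested genes with mean levels of 0 to 4 and 0.11 for those at 4 and above. Of the 8 genes, 5 were at 4 and above. In the erythroid list 27 of 35 genes were higher on average (57.5% of all tested genes) and 10 had both HFD arrays above both CD arrays (22.9%). The latter share of all tested genes was 27.5% at mean levels of 0 to 4 and 40.9% at 4 and above. Of the erythroid genes only Hbb-bh1, an embryonic hemoglobin chain, had an unadjusted p under 0.05 (difference 0.60, 95% interval 0.03 to 1.17), and 1.33% of all tested genes had one with the HFD group higher. With each array centred on the erythroid list in place of the 75th percentile, the median of the 8 genes was 0.02 and 2 of the 8 had non-overlapping groups. Under that scaling the median of all tested genes moved from 0.04 to -0.12, and Gypc (-0.09) and Kel (-0.12) came out below 0. Relatives of these genes that are made mainly in other tissues, such as Sptbn1 (0.06), Epb41l2 (0.16) and Tgm2 (-0.02), had a median of -0.02 over 15 genes, with 7 higher on average. None of the 15 passed an unadjusted p of 0.05.

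**Figure D4:**
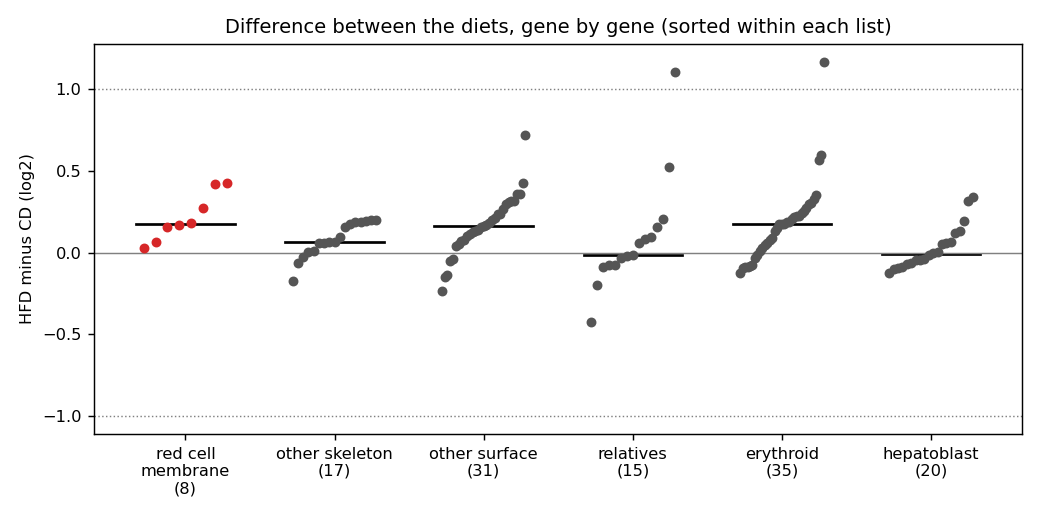
Difference between the diets (HFD minus CD, log2) of every gene in 6 lists, each point 1 gene by its brightest probe and each bar the median. The 8 red cell membrane genes lie between 0.03 and 0.43 with a median of 0.18, and the erythroid list, with a median of 0.17, spans -0.12 to 1.17.

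The genes with the pattern closest to the median of the 8 over the 4 arrays were sought among 83 genes of the erythroid and red cell membrane lists, by the root mean square difference of the levels relative to the mean of each gene. They were Mpp1 (0.019), a palmitoylated protein of the protein 4.1 junction, Rhd (0.020), the amino acid carrier Slc43a1 (0.023), the peroxidase Prdx2 (0.023) and the heme enzyme Alad (0.028). Over all 18350 tested genes, 56 (0.305%) were within 0.028 of that median.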

How the data were processed

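Gene expression was measured in fetal livers, with 2 CD and 2 HFD arrays grouped by their labels. The authors labeled total RNA with Cy3, hybridised it to an Agilent mouse array, and deposited per spot the intensity that Feature Extraction 11.0.1.1 had background-subtracted and spatially detrended, without scaling between arrays. Scores of 0 or 1 that mark spots as outliers, saturated or well above background were deposited beside it. Normalized signal for 41471 probes was deposited by the authors too, and in it each array is its intensity divided by 1 constant (within 0.1% for 100% of probes with 1 spot). The array was designed on mm9, so no coordinates of probes are given. The slide and scan were the same for all 4 arrays. The number of arrays limits the precision.

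Log2 intensities were averaged over the spots of a probe without outlier spots, and the 75th percentile of each array was subtracted. As in the study's methods, probes were left out if under the 20th percentile (14980) or flagged (9) on any array, or if the CV of the log2 signal was over 50% in both groups (2), which left 41614. The model was limma 3.58.1 (R 4.3.3), fitted with lmFit and eBayes to the 4 arrays without covariates, with 95% intervals, and Benjamini-Hochberg adjustment over all tested probes. The call was an unadjusted p under 0.05 with at least 2-fold. The fit was tested on simulated data. Probes were named through RefSeq transcripts (assembly GRCm38.p6), which gave 32994 of 56605 probes 1 gene symbol and 23611 none. A gene in a list is read by its brightest tested probe.

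The genes and lists were chosen with earlier results of these data known. The text names all probes of the 8 genes, the 3 brightest genes of each list and those past the call, and the 5 genes of the most similar pattern. Others (the further partners, globins and transcription factors) were chosen after their values were seen. In the erythroid list Hbb-bs and Ahsp had no named probe. The alternatives were quantile, median and erythroid centring, normexp (offset 50, on median brightness), the deposited table, other filters, mean over probes, the methods' t-tests, a mean-variance trend, a block for the replicate number, removal of saturated spots and removal of each array in turn. Figures were drawn with Python 3.11.15 and matplotlib 3.10.9. Some genes of the lists are not reported here by name.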

Additional observations from a re-analysis of the deposited data

How the results depend on the processing

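No red cell membrane probe passed an unadjusted p under 0.05 with at least 2-fold under any of the 20 alternatives, and the lowest adjusted p of these probes was 0.237. With all 4 arrays kept, the number of them with an unadjusted p under 0.05 was 2 with normexp, with the methods' t-test, with Welch's correction and with a mean-variance trend. It was 1 with the filter on signal well above background and with the mean over all probes. Each of these was higher in the HFD group. The share of all tested probes with such a p was not taken under the alternatives, so these counts have no background beside them. Rhag was among them in 6 of the 16 alternatives that kept all 4 arrays (unadjusted p of limma or the t-tests from 0.0187 to 0.372 over the 16). The median difference of the 8 genes was 0.021 with erythroid centring. There 2 genes had non-overlapping groups in place of 4 (3 with normexp) and Sptb was at 0.028 (0.052 with normexp). With an array left out the median was 0.068 to 0.36, and 4 to 8 genes were above 0. Below 0 were Gypc (-0.0057) and Kel (-0.068) with quantile normalization, Gypc (-0.088) and Kel (-0.12) with erythroid centring, Kel (-0.028) with the mean over its probes, and without CD replicate 1 Ank1 (-0.069), Epb42 (-0.14), Gypc (-0.14) and Kel (-0.28). With an array left out Ank1 ran up to 0.38, Epb42 to 0.48, Gypc to 0.27 and Kel to 0.34, each without CD replicate 2. For these genes the sign without either CD array follows from the order of the arrays. The cause was not tested.

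Over all probes, 118 were higher and 219 lower in the HFD group. These counts were 16 and 42 with normexp, 376 and 479 with no filter on low values, 41 and 56 with the methods' t-test, 21 and 25 with Welch's correction, and 50 and 98 with the mean over probes, where genes are counted. Erythroid centring left 87 higher and 488 lower, and the filter on signal well above background 69 higher. With an array left out they were 195 to 837 and 398 to 501. After adjustment 0 were called, but 1 with normexp (Ctse) and 0 to 26 with an array left out (26 without HFD replicate 1). The labels do not say that a replicate number marks a shared batch, and the deviations of same-numbered arrays were nearly unrelated (correlation -0.11 over probes). With the replicate block 184 were higher and 277 lower. With the numbers crossed, chosen after seeing the data, 184 were higher, 19 were called after adjustment and 1 red cell membrane probe had an unadjusted p under 0.05. Leaving out saturated spots changed no value, since there were 0.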

Other observations

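Other cell types of the fetal liver were read through lists of markers beside the red cell membrane genes. Of 11 tested macrophage genes, 9 were higher on average in the HFD group and 4 had both HFD arrays above both CD arrays, beside 22.9% of all tested genes (median difference 0.11), among them Marco (0.40), while Cd5l and Csf1r differed by 0.15 and 0.04. The share of all tested genes with both HFD arrays above was 27.5% at mean levels of 0 to 4 and 40.9% at 4 and above. Of 10 endothelial genes, 5 had both HFD arrays below both CD arrays and 1 had both above, beside 10.2% and 22.9% of all tested genes (median -0.13), with Stab1 at -0.26, Stab2 at 0.22 and Kdr at 0.12. Granulocyte genes had a median of 0.01 over 11 genes (S100a9 0.05, Mpo -0.07 and S100a8 0.01), and so had stem cell, progenitor and lymphoid genes over 11 genes (Cd34 0.13, Kit -0.30 and Procr -0.02), with overlapping groups in 10 of 11 genes each. No gene of these 4 lists had an unadjusted limma p under 0.05.

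In the lists read beside the red cell membrane genes above, the brightest genes differed between the diets as follows, on the log2 scale. Of the hepatoblast genes, Serpina1a differed by 0.00, Alb by -0.07 and Afp by -0.01. The megakaryocyte genes Pf4, Ppbp and Treml1 differed by 0.18, 0.23 and 0.43, and of these Treml1 had both HFD arrays above both CD arrays. The collagens Col1a2, Col1a1 and Col3a1 differed by 0.05, 0.18 and 0.05, beside a median of -0.06 over 10 mesenchymal genes, none of which had an unadjusted limma p under 0.05. Of the genes of other tissues, Stmn2 differed by -0.43, Wt1 by 0.70 and Tubb3 by -0.83, while Cyp11a1 (1.87), Cdh16 (2.10) and Nr5a1 (1.20) were higher and Sftpc (-2.54) lower in the HFD group. The trophoblast genes Tpbpa (-3.91), Prl3b1 (-3.80), Tpbpb (-3.97), Ceacam12 (-4.91), Prl8a8 (-4.70) and Cts3 (-4.60) were lower at an unadjusted limma p under 0.05. So were Psg18, Prl7a2 and Psg17, but these were well above background on only 3 of the 4 arrays and no size is given for them. The transcription factor Gcm1 (0.55) had overlapping groups.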
